A study of Mus musculus with 10 samples.

Results

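The 9 genes described here are 3 TGF-β ligands (*Tgfb1*, *Tgfb2* and *Tgfb3*), the 2 receptors that bind them to signal (*Tgfbr1* and *Tgfbr2*), 3 genes that act on the ligands or beside them (*Thbs1*, *Ltbp1* and *Inhba*) and the TGF-β-induced matrix gene *Tgfbi*. They were taken by symbol from the 55401 gene rows of the count files, where each of the 9 symbols has 1 row, and all 9 passed edgeR's filter on low counts. The samples were 10 whole B16F10 tumors, a mouse melanoma model, sequenced in bulk. In 5 of them the injected cells were knocked out for *Mir25* (KO), the gene of the microRNA miR-25, and in the other 5 they carried a non-targeting control (NTC). The hosts were female C57BL/6J mice aged 9 to 12 weeks, and every one of them, KO and NTC alike, received Comb, which is GVAX (1000000 cells of a tumor cell vaccine on days 1 and 4) with the checkpoint antibody αPD-1 (10 mg/kg on days 6, 9 and 12), before the tumors were taken on day 15. Only the injected cells were edited, so the immune, vessel and stromal cells of a KO tumor still carry *Mir25*. The sources used here do not say whether the KO tumors came from a pool of edited cells or from 1 clone. The comparison asks whether the level of these genes in a treated tumor differs when the tumor cells lack *Mir25*.

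TGF-β is made as an inactive complex with its own propeptide, and latent TGF-β binding proteins such as *Ltbp1* tether that complex to the matrix. Thrombospondin-1 (*Thbs1*) and several integrins release the active ligand, which assembles a complex of *Tgfbr2* and *Tgfbr1* that phosphorylates *Smad2* and *Smad3*. In tumors the pathway is known for restraining T cells and for driving fibroblasts to lay down matrix. *Inhba* encodes a subunit of activin A, a related ligand that signals through other receptors to the same Smads, and *Tgfbi* encodes a secreted matrix protein named for its induction by TGF-β.

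MicroRNAs act mainly through pairing of bases 2 to 8, the seed, with sites in 3′ UTRs. The mature miR-25-3p is shown because its loss defines the KO group, with 2 other microRNAs of the same seed that the edit leaves in place. Capitals mark the seed, the sequences are from RefSeq, and positions are on GRCm38, the same build as the authors' mm10. The *Mir25* sequence lies at chr5:138165332-138165353 on the minus strand, inside an intron of *Mcm7*. miR-32-5p, miR-363-3p and miR-367-3p share the seed as well.
miR-25-3p: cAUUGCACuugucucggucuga
miR-92a-3p: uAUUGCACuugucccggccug
miR-92b-3p: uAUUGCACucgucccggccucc

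The longest annotated 3′ UTR of each of the 9 genes was searched on the transcript strand for the 8mer GTGCAATA, the 7mer-m8 GTGCAAT and the 7mer-A1 TGCAATA, with a 7mer inside an 8mer counted once. None held the 8mer or the 7mer-m8. *Tgfbr2* and *Inhba* each held 1 match to the 7mer-A1, at chr9:116089766-116089772 on the minus strand and at chr13:16030242-16030248 on the plus strand, and these are printed with the match in capitals.
*Tgfbr2* 3′ UTR: cactttgtttTGCAATAatgacc
*Inhba* 3′ UTR: tgtatggcctTGCAATAgaattt
Of 21022 annotated 3′ UTRs, 12.7% held at least 1 match of any of these kinds. Both 3′ UTRs are long (6085 bases for *Tgfbr2* and 4492 for *Inhba*). Among 3′ UTRs between 0.8 and 1.25 times their length the share with a match was 42.5% for *Tgfbr2* and 34.1% for *Inhba*. The 7mer-A1 pairs with bases 2 to 7 only, so none of the 9 genes held a match to all of bases 2 to 8. In the other 7 members none of these 3 kinds was found, shorter matches were not searched, and this describes the letters only.

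In each of 9 libraries between 23243707 and 28682130 reads were counted on genes, and in NTC replicate 1 there were 11896643. That library also stood apart in other ways. Mitochondrial genes took 29.4% of its reads on genes against 3.96% to 12.5% in the other 9 libraries, the row *Gm10800* took 10.1% against 0.0545% to 2.39%, and 42.9% of the reads in its file were assigned to no feature against 17.5% to 28.2%. Its TMM normalization factor was 0.628 against 0.968 to 1.11. Values in CPM (counts divided by the TMM-normalized library size, on a scale of 1000000 reads) therefore sit higher for this library, relative to the others, than values scaled to all of its reads. The edgeR differences between KO and NTC without a covariate are given with and without it. The fits with a marker score as a covariate were run only with it. *Mir25* had 0 reads in all 10 libraries, so the counts do not check the deletion. All 7 melanoma markers (such as *Pmel* and *Mlana*) were detected in all 10 tumors. The labels number the tumors without naming the animals, so the p-values measure the spread between these samples.

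Between genes, levels were compared as TPM (counts divided by exon length and scaled to the same sum in each tumor), and the order of the medians over 10 tumors was *Tgfbi*, *Thbs1*, *Tgfbr1*, *Tgfbr2*, *Tgfb1*, *Tgfb3*, *Inhba*, *Tgfb2* and *Ltbp1*. The medians ran from 94.4 TPM for *Tgfbi* through 46.4 for *Thbs1*, 35 for *Tgfbr1* and 24.6 for *Tgfbr2* to 12.3 for *Tgfb1*. Below them were *Tgfb3* at 7.49 TPM, *Inhba* at 2.03, *Tgfb2* at 1.83 and *Ltbp1* at 1.13. By median, the matrix gene and the activator were the most abundant of the 9 and the receptors were above the ligands. Most neighbours in this order changed places in some tumors. *Tgfbi* was above *Thbs1*, *Thbs1* above *Tgfbr1*, *Tgfbr1* above *Tgfbr2* and *Tgfb2* above *Ltbp1* in 8 of 10 tumors each, *Tgfb3* was above *Inhba* in 9, and *Tgfbr2* was above *Tgfb1* in all 10. *Inhba* was above *Tgfb2* in only 3 of 10 tumors although its median was higher. *Tgfb1* was above *Tgfb3* in 7 of 10. The length used bears on this order, since the exons of *Tgfb1*, for example, add up to 5042 bases but its longest transcript has 2573. With the longest transcript as the length, *Tgfb1* was above *Tgfb3* in all 10 tumors, *Tgfbr2* above *Tgfb1* in only 5 and *Tgfb2* above *Ltbp1* in only 6, and the medians of *Inhba* (1.67 TPM) and *Tgfb2* (1.71 TPM) changed places.

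**Figure D1:**
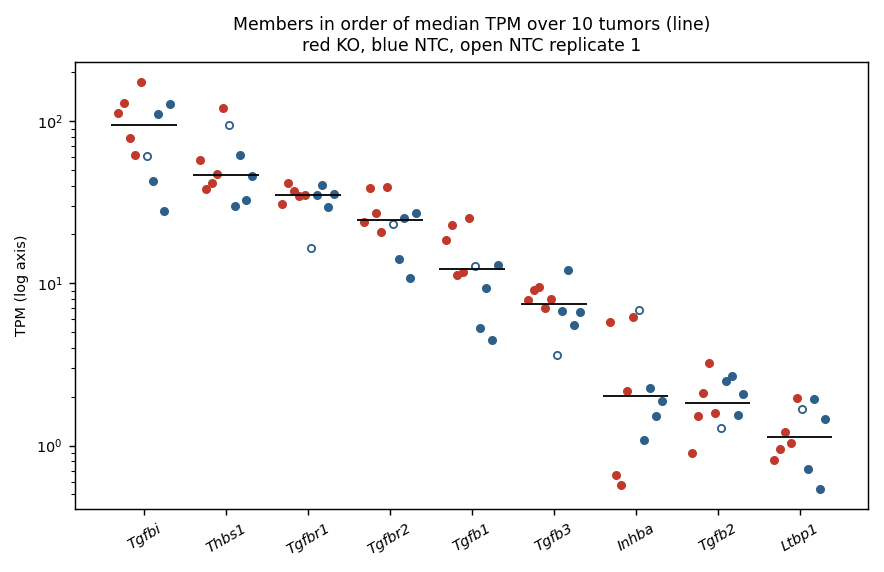
Level of each of the 9 genes in TPM (log axis), 1 point per tumor (red KO, blue NTC, open point NTC replicate 1) and a line at the median over 10 tumors. The medians span 94.4 TPM (*Tgfbi*) to 1.13 TPM (*Ltbp1*), and most neighbouring genes overlap.

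The edgeR test of KO against NTC over 10 tumors called none of the 9 genes (adjusted p under 0.05 over 15821 genes and an absolute log2 fold change above 1), where 0.0190% of all genes tested were called. None of the 9 had an unadjusted p under 0.05, against 8.85% of all genes. The KO and NTC values overlapped for each of the 9 genes, and groups that do not overlap were found for 2.34% of all genes. The fitted log2 fold change was above 0 for 5 members and below 0 for 4, with a median of 0.07 beside 0.01 over all genes. Without NTC replicate 1, 2 of the 9 genes (*Tgfb1* and *Tgfbr2*, both higher in KO) had an unadjusted p under 0.05 where 12.0% of all genes were higher at that level and 20.1% passed it in either direction. In this edgeR fit of 9 tumors none of the 9 genes was called (0.106% of all genes), and KO and NTC still overlapped for each of the 9 (6.30% of all genes did not overlap). Over the same 9 tumors 8 members had a log2 fold change above 0 and the median of the 9 was 0.66, beside -0.02 over all genes.

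**Figure D2:**
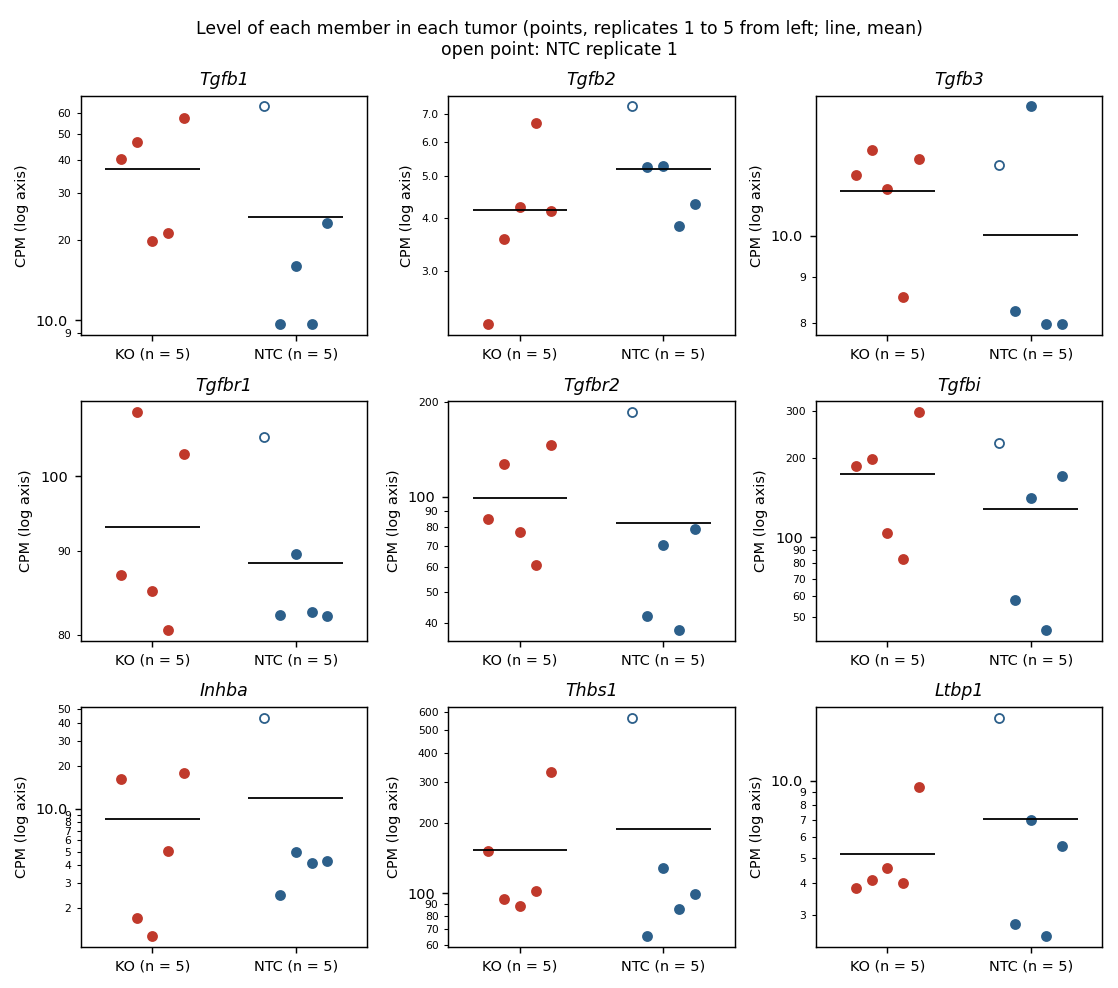
Each gene in each tumor in CPM (log axis), with KO (red) and NTC (blue) replicates 1 to 5 from left to right and a line at the group mean. The open point is NTC replicate 1, which holds the highest of 10 CPM values for *Tgfb1*, *Tgfb2*, *Tgfbr2*, *Inhba*, *Thbs1* and *Ltbp1*. In TPM it holds the highest value of these only for *Inhba*.

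*Tgfb1* (ENSMUSG00000002603.15, chr7:25687002-25705077, plus strand) encodes TGF-β1, the ligand that is usually the most abundant in tumors and immune cells. KO tumors 1 to 5 had 40.4, 46.7, 19.8, 21.4 and 57.6 CPM. The 5 NTC tumors, in the same order, had 63.6, 9.68, 16.0, 9.68 and 23.3 CPM. NTC replicate 1 had the highest CPM of all, and apart from it only NTC replicate 5 reached the lower KO tumors. In TPM NTC replicate 1 was at 12.9, below the 25.3 of KO replicate 5. The means were 37.2 ± 16.3 CPM (SD, n = 5) in KO and 24.5 ± 22.6 CPM (SD, n = 5) in NTC tumors. The fitted log2 fold change was 0.63 with a 95% interval of -0.57 to 1.82 (standard error 0.54, adjusted p = 0.760 by edgeR). Without NTC replicate 1 the NTC mean was 14.7 ± 6.47 CPM (SD, n = 4) and the log2 fold change 1.30 (standard error 0.37, adjusted p = 0.154 by edgeR). Run on unfiltered counts of the same 9 tumors, DESeq2 called *Tgfb1* at 1.33 (standard error 0.38, adjusted p = 0.0168), where 3.32% of 18601 genes were called higher. With library totals alone, without a normalization factor, *Tgfb1* was the 1 member at an unadjusted p under 0.05 (8.83% of all genes), and over the alternatives its adjusted p ran from 0.0168 to 0.982. With the mean log2 CPM of 10 pan-leukocyte markers (such as *Ptprc*, which encodes CD45) as a covariate, the log2 fold change over 10 tumors was 0.08 (standard error 0.15).

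*Tgfb2* (ENSMUSG00000039239.14, chr1:186622792-186705989, minus strand) encodes TGF-β2, which needs a co-receptor to bind *Tgfbr2* well. Its values were low, at 2.26, 3.57, 4.24, 6.67 and 4.14 CPM in KO tumors 1 to 5. NTC replicates 1 to 5 had 7.27, 5.25, 5.27, 3.82 and 4.30 CPM. The groups overlapped throughout, with the lowest CPM in KO replicate 1 and the highest in NTC replicate 1. In TPM NTC replicate 1 was among the lowest at 1.28, and KO replicate 4 was the highest at 3.21. KO over NTC gave -0.30 on the log2 scale (95% interval -0.94 to 0.34, standard error 0.29, adjusted p = 0.780 by edgeR). When NTC replicate 1 was left out it was -0.19 (standard error 0.30, adjusted p = 0.747 by edgeR). Between 54 and 185 reads per library lay behind these values, and in NTC replicate 1 about 9.82% of its 54 reads would be background at the mean read density, in that library, of the 20226 genes without a read in the other 9 libraries.

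*Tgfb3* (ENSMUSG00000021253.7, chr12:86056745-86079041, minus strand) encodes TGF-β3. KO tumors 1 to 5 had 11.7, 12.5, 11.3, 8.54 and 12.2 CPM. In NTC tumors 1 to 5 it was at 12.0, 8.24, 13.9, 7.97 and 7.98 CPM. The KO tumors were close to each other except KO replicate 4, while the NTC tumors split between about the KO level and a lower one. By edgeR's test KO differed from NTC by a log2 fold change of 0.17 (standard error 0.20, 95% interval -0.27 to 0.60, adjusted p = 0.831). With NTC replicate 1 left out it was 0.20 (standard error 0.20, adjusted p = 0.586 by edgeR). Exons of the genes *Gm37804* and *Gm48008* overlap 163 and 257 bases of *Tgfb3* on the opposite strand. Such overlaps also touch *Tgfb2* (124 bases, *Gm29491*) and *Thbs1* (208 bases, *Gm29233*). The strand setting of the counting is not given in the sources used here.

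The share of the 3 ligands' summed TPM that came from *Tgfb1* does not depend on library scaling. It was 67.6%, 68.3%, 49.2%, 53.6% and 72.6% in KO tumors 1 to 5. In NTC tumors 1 to 5 it was 72.4%, 36.5%, 38.7%, 38.9% and 59.8%. *Tgfb1* was the leading ligand in all 5 KO tumors and in NTC replicates 1 and 5, and *Tgfb3* led in NTC replicates 2, 3 and 4. *Tgfb2* supplied between 3.29% and 17.2%. With the longest transcript as the length, *Tgfb1* supplied 52.1% to 83.5% and led in all 10 tumors.

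*Tgfbr1* (ENSMUSG00000007613.15, chr4:47353222-47414931, plus strand) encodes the type I receptor kinase that phosphorylates *Smad2* and *Smad3*. It varied least of the 9 genes, with 87.1, 109, 85.1, 80.6 and 103 CPM in KO tumors 1 to 5. The 5 NTC tumors, in the same order, had 106, 82.4, 89.7, 82.7 and 82.2 CPM. The highest value was 1.36 times the lowest, and the groups overlapped. KO and NTC differed by 0.07 on the log2 scale, with a 95% interval of -0.17 to 0.32 (standard error 0.11, adjusted p = 0.870 by edgeR). Leaving out NTC replicate 1 gave 0.11 (standard error 0.10, adjusted p = 0.537 by edgeR).

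*Tgfbr2* (ENSMUSG00000032440.13, chr9:116084293-116175360, minus strand) encodes the type II receptor that binds the ligand first. KO tumors 1 to 5 had 85.2, 127, 77.2, 60.8 and 146 CPM. NTC replicates 1 to 5 had 185, 42.0, 70.3, 37.9 and 79.4 CPM. NTC replicates 2 and 4 were below every KO tumor, NTC replicate 1 was above every KO tumor in CPM, and the others overlapped. In TPM NTC replicate 1 was at 23.1, within the KO range of 20.7 to 39.5. The fitted log2 fold change was 0.27 with a 95% interval of -0.68 to 1.21 (standard error 0.43, adjusted p = 0.875 by edgeR) over 10 tumors. Without NTC replicate 1 it was 0.75 (95% interval 0.10 to 1.41, adjusted p = 0.212 by edgeR). It was 0.09 without KO replicate 5, 0.10 without NTC replicate 2 and 0.08 without NTC replicate 4. With the pan-leukocyte score as a covariate it was -0.19 over 10 tumors. The ratio of *Tgfbr2* to *Tgfbr1* in TPM, which library scaling does not touch, ran from 0.602 in KO replicate 4 to 1.13 in KO replicate 5. In NTC tumors it ran from 0.366 in replicate 4 to 1.40 in replicate 1, and from 0.366 to 0.770 without replicate 1.

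*Thbs1* (ENSMUSG00000040152.8, chr2:118111876-118127133, plus strand) encodes thrombospondin-1, a matrix protein stored in platelets that can activate latent TGF-β. KO tumors 1 to 5 had 152, 94.0, 87.7, 103 and 331 CPM. In NTC tumors 1 to 5 it was at 565, 65.5, 128, 85.1 and 98.8 CPM. KO replicate 5 and NTC replicate 1 stood well above the other 8 tumors, which overlapped between 65.5 and 152 CPM. KO over NTC gave -0.29 on the log2 scale (95% interval -1.69 to 1.10, standard error 0.63, adjusted p = 0.911 by edgeR) over 10 tumors, and 0.66 (adjusted p = 0.362, standard error 0.39) without NTC replicate 1, so its direction turned without 1 library. With all 10 tumors kept it was also just above 0 in 2 alternatives, at 0.0313 with the replicate number as a block and 0.0412 with no normalization factor. DESeq2 over 10 tumors gave no p for *Thbs1*.

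*Ltbp1* (ENSMUSG00000001870.16, chr17:75005568-75392512, plus strand) encodes the latent TGF-β binding protein that anchors the inactive complex in the matrix. KO tumors 1 to 5 had 3.81, 4.10, 4.55, 4.00 and 9.43 CPM. The 5 NTC tumors, in the same order, had 17.5, 2.76, 7.0, 2.48 and 5.55 CPM. As with *Thbs1*, the highest CPM values were in NTC replicate 1 and KO replicate 5, and the groups overlapped. In TPM KO replicate 5 (1.95) and NTC replicate 3 (1.92) were above NTC replicate 1 (1.67). By edgeR's test KO differed from NTC by a log2 fold change of -0.42 (standard error 0.53, 95% interval -1.59 to 0.74, adjusted p = 0.841) and 0.18 (standard error 0.39, adjusted p = 0.808 by edgeR) without NTC replicate 1. Of the 130 reads on *Ltbp1* in that library, about 7.53% would be background by the same estimate as for *Tgfb2*.

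*Inhba* (ENSMUSG00000041324.14, chr13:16011851-16031621, plus strand) encodes the activin βA subunit. It varied most of the 9 genes, with 16.1, 1.71, 1.28, 5.01 and 17.9 CPM in KO tumors 1 to 5. NTC replicates 1 to 5 had 43.1, 2.50, 4.95, 4.15 and 4.27 CPM. The highest value was 33.7 times the lowest, and KO tumors 2 and 3 were below every NTC tumor while KO tumors 1, 4 and 5 were above 4 of them. The fitted log2 fold change was -0.45 with a 95% interval of -2.58 to 1.68 (standard error 0.96, adjusted p = 0.910 by edgeR) over 10 tumors. Without NTC replicate 1 it was 1.04 (standard error 0.73, adjusted p = 0.438 by edgeR). NTC replicate 1 was at 10.9 times the mean of the other 4 NTC tumors (3.97 ± 1.04 CPM, SD, n = 4).

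*Tgfbi* (ENSMUSG00000035493.10, chr13:56609523-56639562, plus strand) encodes a matrix protein that macrophages and fibroblasts also make. KO tumors 1 to 5 had 185, 198, 104, 83.3 and 296 CPM. In NTC tumors 1 to 5 it was at 226, 58.0, 141, 44.8 and 171 CPM. NTC replicates 2 and 4 were below every KO tumor and the others overlapped. KO over NTC gave 0.44 on the log2 scale (95% interval -0.61 to 1.49, standard error 0.48, adjusted p = 0.815 by edgeR) over 10 tumors. It was 0.70 (standard error 0.46, adjusted p = 0.404 by edgeR) without NTC replicate 1 and -0.21 (standard error 0.15) over 10 tumors with the pan-leukocyte score as a covariate. Without KO replicate 5 it was 0.16, without NTC replicate 2 it was 0.25 and without NTC replicate 4 it was 0.22.

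**Figure D3:**
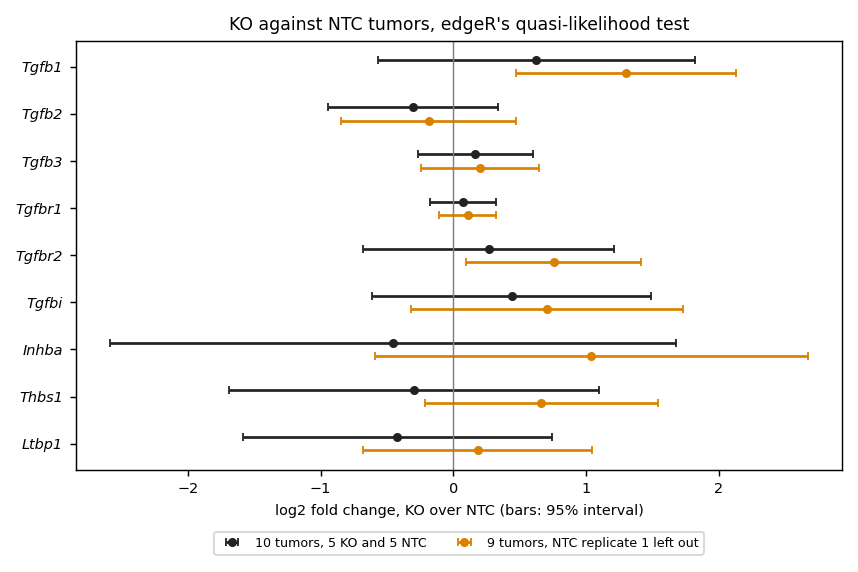
Fitted log2 fold change of KO over NTC tumors with its 95% interval for each gene, over 10 tumors (black) and without NTC replicate 1 (orange). Over 10 tumors every interval holds 0, and without NTC replicate 1 those of *Tgfb1* (0.47 to 2.13) and *Tgfbr2* (0.10 to 1.41) lie above it before adjustment for the number of genes.

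A whole tumor holds many cell types, and in such bulk samples fewer cells of a type and less RNA per cell cannot be told apart. The log2 CPM of each member was therefore set beside the score (mean log2 CPM) of 11 lists of marker genes over the 10 tumors, 99 pairs in all, with two-sided permutation tests of 100000 resamples. Of these, 50 pairs had a Benjamini-Hochberg adjusted p under 0.05, 43 with a positive r and 7 with a negative r, and all 7 negative ones were with the melanoma score. All scores come from the same 10 libraries, so the lists are not independent and a member can follow several of them. The scores also differed with the libraries. The summed CPM of the 10 pan-leukocyte markers was between 840 and 3368 in KO tumors, between 525 and 1210 in NTC replicates 2 to 5 and 2677 in NTC replicate 1. The summed CPM of the 7 macrophage markers was between 903 and 3934 in KO tumors, between 291 and 1284 in NTC replicates 2 to 5 and 3329 in NTC replicate 1.

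*Tgfb1*, *Tgfbr2* and *Tgfbi* had their highest r with the pan-leukocyte or the macrophage score, but other scores were nearly as close. For *Tgfb1* and the macrophage score Pearson's r was 0.98 (permutation p = 1e-05, adjusted p = 0.000247) and Spearman's rho 0.93 (permutation p = 0.00035, adjusted p = 0.00433), and 1e-05 is the smallest p these resamples can give. Here r was 0.97 without the 2 tumors farthest from the median score, 0.97 with the group means removed and 0.98 without NTC replicate 1. For *Tgfbr2* and the macrophage score r was 0.97 (permutation p = 1e-05, adjusted p = 0.000247) and rho 0.96 (permutation p = 8e-05, adjusted p = 0.00198), with r at 0.95, 0.98 and 0.99 in the same 3 repeats. For *Tgfbi* and the pan-leukocyte score r was 0.96 (permutation p = 1e-05, adjusted p = 0.000247) and rho 0.99 (permutation p = 1e-05, adjusted p = 0.00099), and r stayed between 0.93 and 0.96 in the repeats. With the fibroblast score r was 0.92 for each of these 3 genes (rho 0.90, 0.95 and 0.96 for *Tgfb1*, *Tgfbr2* and *Tgfbi*). With the endothelial score r was 0.95 for *Tgfbr2*, and 0.96 without the 2 tumors farthest from the median score. The scores were not tested against each other. These 3 genes varied with the leukocyte markers within the KO and the NTC group and not only between the groups. *Tgfbr1* went the same way with a smaller range, at r = 0.84 with the pan-leukocyte score (permutation p = 0.00208, adjusted p = 0.0092), rho = 0.75 (permutation p = 0.0169, adjusted p = 0.0464) with r = 0.83 without the 2 tumors farthest from the median score and 0.82 without NTC replicate 1.

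*Thbs1*, *Ltbp1* and *Inhba* had their highest r with the platelet score instead. For *Thbs1* r was 0.96 (permutation p = 0.00017, adjusted p = 0.0012) and rho 0.81 (permutation p = 0.00716, adjusted p = 0.0286). Without KO replicate 5 and NTC replicate 1, the tumors farthest from the median score, r was 0.74, and without NTC replicate 1 alone it was 0.91. For *Ltbp1* r was 0.85 (permutation p = 0.00316, adjusted p = 0.0109) and rho 0.54 (permutation p = 0.113, adjusted p = 0.197), but without those 2 tumors r was 0.27, so the relation rests on them, and without NTC replicate 1 alone it was 0.65. For *Inhba* r was 0.83 (permutation p = 0.00307, adjusted p = 0.0109) and rho 0.65 (permutation p = 0.0497, adjusted p = 0.107), and without those 2 tumors r was 0.43, so it rests on them too, with 0.68 without NTC replicate 1 alone. With the melanoma score r was negative, at -0.92 for *Thbs1*, -0.75 for *Ltbp1* and -0.82 for *Inhba*. Without the same 2 tumors it was -0.54, 0.07 and -0.45. For *Inhba* rho with the melanoma score was -0.78 (permutation p = 0.0106, adjusted p = 0.0379). The platelet score itself is weakly founded. Of its 5 markers, *Gp1bb* was at 0 in 9 tumors and *Gp9* in 5, and only 2 passed the filter on low counts. The summed CPM of the list was 10.4 to 66.8 in KO tumors, 4.53 to 10.3 in NTC replicates 2 to 5 and 114 in NTC replicate 1. The 3 genes also had positive r with the neutrophil score, where NTC replicate 1 had a summed CPM of 102 against 9.59 to 58.0 in KO tumors and 3.12 to 14 in the other NTC tumors. The part of platelets and neutrophils in their levels was not tested. *Ltbp1* had r = 0.84 with the endothelial score (permutation p = 0.00263, adjusted p = 0.01) and rho = 0.81 (permutation p = 0.00722, adjusted p = 0.0286), and there r was 0.75 without the 2 farthest tumors and 0.78 without NTC replicate 1.

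For *Tgfb2* no pair passed the adjusted threshold. Its r lay between -0.31 and 0.32 with the 11 scores over 10 tumors, but this depended on 1 library. With that library, NTC replicate 1, left out it was -0.56 with the neutrophil score (compared with -0.03), -0.50 with the T cell score and -0.40 with the pan-leukocyte score, and with the group means removed it was 0.74 with the skeletal muscle score. *Tgfb3* passed the adjusted threshold with 2 scores, and its highest r was 0.75 with the endothelial score (permutation p = 0.0112, adjusted p = 0.0307), with rho = 0.82 (permutation p = 0.00592, adjusted p = 0.0266) and r = 0.76 both without the 2 farthest tumors and without NTC replicate 1. With the pan-leukocyte and macrophage scores its r was 0.67 and 0.69 (permutation p = 0.04 and 0.0357, adjusted p = 0.0707 and 0.0654). No member passed with the skeletal muscle or keratinocyte scores, whose highest values came from KO tumors that held muscle and skin transcripts. As a description over 10 tumors, Pearson's r was 0.96 between *Tgfb1* and *Tgfbr2*, 0.90 between *Thbs1* and *Ltbp1* and 0.89 between *Thbs1* and *Inhba*. It was -0.10 between *Tgfb1* and *Tgfb2*.

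**Figure D4:**
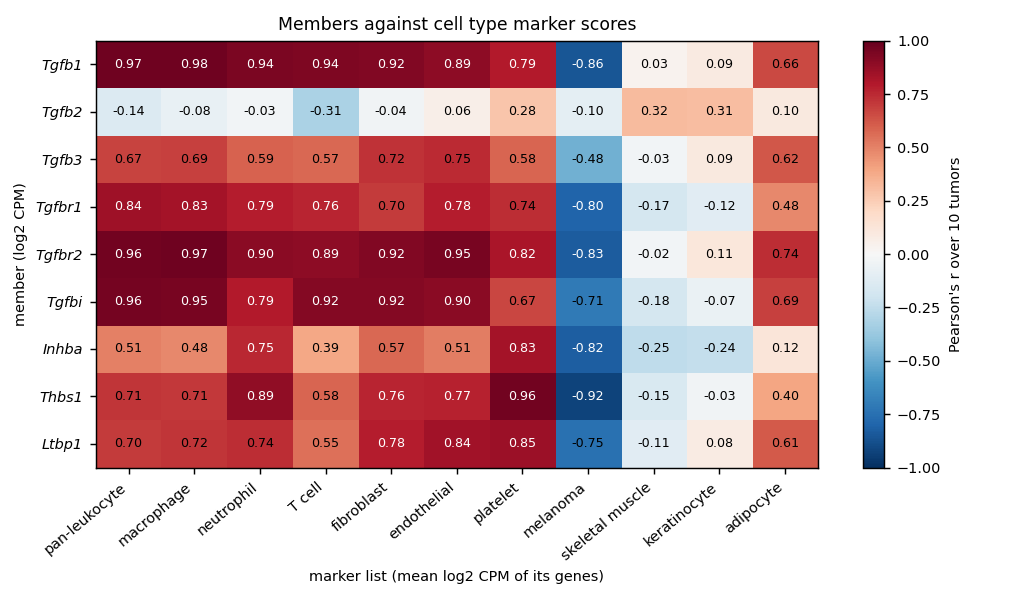
Pearson's r over 10 tumors between the log2 CPM of each gene (rows) and the score of each marker list (columns), red positive and blue negative. *Tgfb1*, *Tgfbr2* and *Tgfbi* are at 0.95 or above with the pan-leukocyte and macrophage scores, *Thbs1* is at 0.96 with the platelet score, and *Tgfb2* lies between -0.31 and 0.32 with NTC replicate 1 included.

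**Figure D5:**
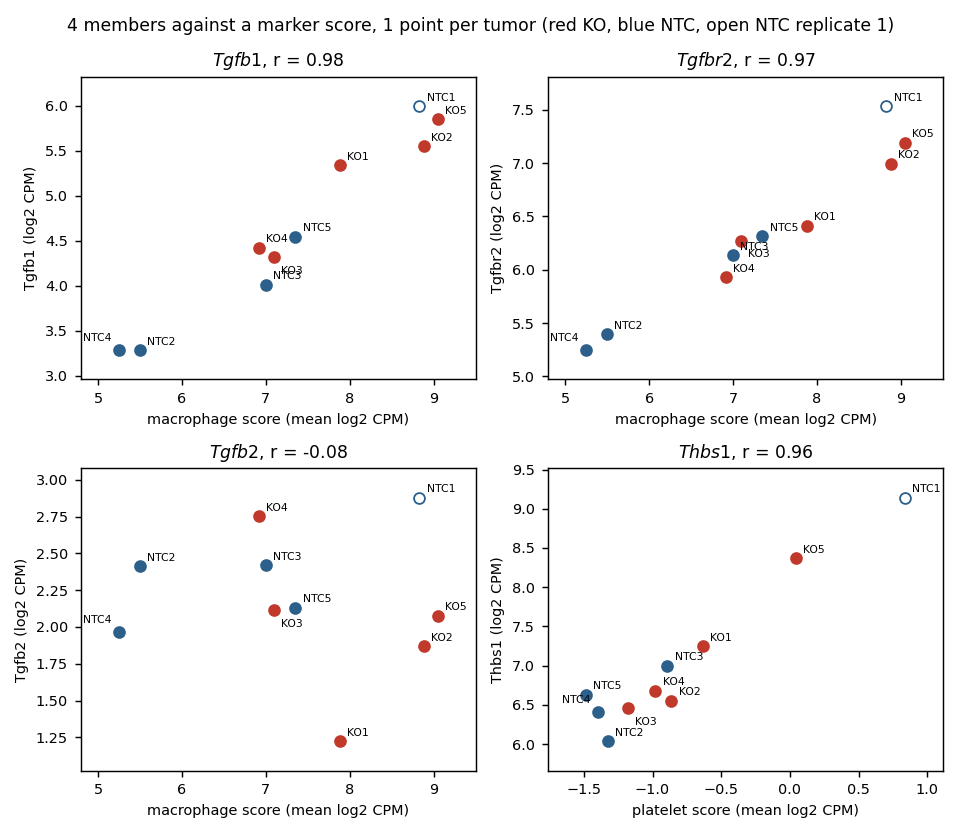
Log2 CPM of 4 genes against a marker score, 1 point per tumor (red KO, blue NTC, open NTC replicate 1). KO and NTC tumors lie along 1 line for *Tgfb1* (r = 0.98) and *Tgfbr2* (r = 0.97) against the macrophage score, r is -0.08 for *Tgfb2* (-0.35 without NTC replicate 1), and the line of *Thbs1* against the platelet score (r = 0.96) is drawn out by KO replicate 5 and NTC replicate 1.

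When a marker score was entered in edgeR's fit over 10 tumors as a covariate, the differences between KO and NTC changed for most members. *Tgfb1* was at 0.08 with the pan-leukocyte score, 0.16 with the fibroblast score and 0.01 with the macrophage score, compared with 0.63 without a score. *Ltbp1* was at -0.79, -0.80 and -0.87 with the 3 scores, and *Thbs1* at -0.75, -0.74 and -0.81. *Inhba* was at -0.93, -0.95 and -0.95, compared with -0.45 without a score. *Tgfb2* hardly moved, at -0.29, -0.33 and -0.32 compared with -0.30. With the pan-leukocyte score, 2 of the 9 genes (*Thbs1* and *Ltbp1*, both lower in KO) had an unadjusted p under 0.05, where 6.49% of all genes were lower at that level. The same 2 did so with the fibroblast score (5.21% of all genes), and 3 (these 2 and *Tgfbr2*) with the macrophage score (6.50% of all genes). None of these passed after adjustment, and the lowest adjusted p of edgeR among them was 0.218, for *Ltbp1*. All of these fits include NTC replicate 1, which had the highest CPM of *Thbs1*, *Ltbp1* and *Tgfbr2*, and they were not run without it. Without that library and without a score, *Thbs1* was at 0.66 and *Ltbp1* at 0.18.

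The 53 other genes of the pathway were grouped in 7 lists by role, and 50 of them passed the filter. The edgeR test over 10 tumors called none of them, and 5 had an unadjusted p under 0.05, 2 higher in KO (3.99% of all genes) and 3 lower (4.85%). Without NTC replicate 1 none was called, 13 were higher at an unadjusted p under 0.05 (12.0% of all genes) and 5 lower (8.10%). DESeq2 without a filter called 3 of them higher over those 9 tumors, *Nrros*, *Thbs2* and *Pmepa1*, where 3.32% of all genes were called higher. Over all genes tested the median log2 fold change was 0.0076 over 10 tumors, where 8120 of 15821 genes were above 0, and -0.0155 without NTC replicate 1. Many marker lists lay above these medians. The pan-leukocyte, macrophage and fibroblast markers had medians of 0.85, 0.97 and 0.31 over 10 tumors and 1.5, 1.65 and 1.55 without NTC replicate 1, and their part in the values of the pathway lists was not tested.

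Of the genes of latency and matrix storage, all 7 had a log2 fold change above 0 over 10 tumors, with a median of 0.39, and 1 had an unadjusted p under 0.05, higher in KO (3.99% of all genes). This was *Ltbp4*, another latent TGF-β binding protein, at 6.87 ± 2.38 CPM in KO and 3.94 ± 0.818 CPM in NTC tumors (SD, n = 5 each). Its KO tumors 1 to 5 had 10.6, 4.56, 7.65, 6.02 and 5.52 CPM and its NTC tumors 1 to 5 had 3.10, 3.45, 4.10, 3.82 and 5.24 CPM, so that only KO replicate 2 fell within the NTC range. This is a log2 fold change of 0.79 (standard error 0.25, adjusted p = 0.361 by edgeR). *Lrrc32*, which encodes the surface anchor GARP for latent TGF-β on regulatory T cells and platelets, was at a log2 fold change of 0.47 (adjusted p = 0.803 by edgeR) over 10 tumors and 0.98 (adjusted p = 0.200) without NTC replicate 1. Without that library *Ltbp4* was at 0.70 (adjusted p = 0.205 by edgeR), the median of the list was 0.98, and 3 of the 7 genes had an unadjusted p under 0.05, all higher in KO (12.0% of all genes).

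In the activation list 7 of 9 genes were tested and none had an unadjusted p under 0.05, with a median log2 fold change of 0.17. The median was 0.34 without NTC replicate 1, and 2 genes were higher and 1 lower at that level (12.0% and 8.10% of all genes). The integrin chain *Itgav* was at -0.17 (adjusted p = 0.638 by edgeR) over 10 tumors and -0.23 (adjusted p = 0.234) without NTC replicate 1. Its partner *Itgb8*, with about 1 CPM, was at -0.36 and -0.07. *Itgb6* and *Plg* did not pass the filter. The response genes had a median of 0.15 over 10 tumors and 1.10 without NTC replicate 1, and none of 9 and then 5 of 9, all higher in KO (12.0% of all genes), had an unadjusted p under 0.05. Of these 5, *Col1a1*, *Postn* and *Acta2* are also expressed by fibroblasts, whose markers are given above. *Pmepa1*, a Smad target that dampens the pathway, was at 0.79 over 10 tumors (adjusted p = 0.762 by edgeR) and 1.56 without NTC replicate 1 (adjusted p = 0.191). It was the only gene of the lists whose groups did not overlap over the 9 tumors, where KO tumors had 3.75 to 11.3 CPM and NTC replicates 2 to 5 had 0.492 to 3.63 CPM, which is 1 of the 50 genes tested beside 6.30% of all genes.

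Among the other receptors 8 of 9 genes were tested, and 3 had an unadjusted p under 0.05, beside 8.85% of all genes. *Acvr1*, a type I receptor for BMP and activin, was lower in KO at 30.5 ± 8.31 CPM against 45.3 ± 12.2 CPM in NTC tumors (SD, n = 5 each), a log2 fold change of -0.57 (adjusted p = 0.471 by edgeR). *Acvr2a*, a type II receptor for activin, was at -0.28 (adjusted p = 0.434 by edgeR), and *Acvr1b*, the type I receptor for activin, at 0.35 (adjusted p = 0.554 by edgeR). In the 9 tumors left without NTC replicate 1 these 3 were at -0.69, -0.27 and 0.33 (adjusted p = 0.177, 0.207 and 0.268 by edgeR), and *Acvr1b* no longer had an unadjusted p under 0.05. *Acvr1* no longer had it without KO replicate 2, 3 or 5 or NTC replicate 4. With other single tumors left out, *Acvr1b* lost it too in most fits. With the pan-leukocyte, fibroblast and macrophage scores as covariates over 10 tumors, *Acvr1* was at -0.35, -0.40 and -0.32 and *Acvr1b* at 0.14, 0.19 and 0.14, and neither had an unadjusted p under 0.05. *Acvr2a* still did, at -0.28, -0.30 and -0.29. The co-receptor *Tgfbr3* was at 0.15 (adjusted p = 0.944 by edgeR) over 10 tumors and 0.82 (adjusted p = 0.185) without that library, where it had an unadjusted p under 0.05. Another co-receptor, *Eng*, was at -0.06 and -0.10, and *Acvr2b* at -0.40 and -0.51. Of the Smads and their regulators 1 of 9 passed the unadjusted threshold, beside the same 8.85% of all genes. This was the ubiquitin ligase *Smurf1* at -0.22 (adjusted p = 0.537 by edgeR), and without NTC replicate 1 it was at -0.26 (adjusted p = 0.228). A second gene of this list, *Ski*, passed the unadjusted threshold without that library, in the other direction at 0.28 (adjusted p = 0.238 by edgeR). With the 3 scores as covariates *Smurf1* was at -0.18, -0.18 and -0.17, and its unadjusted p was no longer under 0.05. *Smad7*, the inhibitory Smad that the pathway induces, was at -0.13 (-0.17 without NTC replicate 1), with 9.11 ± 1.86 CPM in KO and 9.99 ± 0.95 CPM in NTC tumors (SD, n = 5 each). None of the 4 activin and inhibin genes passed it with or without NTC replicate 1. None of the 6 matrix binders passed it over 10 tumors, and 1 higher and 1 lower did without that library (12.0% and 8.10% of all genes). The activin antagonist *Fst* was at -0.56 over 10 tumors and 0.84 without NTC replicate 1. *Sdc3*, the syndecan gene that the study followed as a target of miR-25, was at a log2 fold change of 0.99 (standard error 0.60, adjusted p = 0.659 by edgeR) over 10 tumors and 1.62 (standard error 0.49, adjusted p = 0.167) without NTC replicate 1. KO tumors 1 to 5 had 175, 327, 82.9, 89.6 and 336 CPM and NTC tumors 1 to 5 had 256, 38.3, 70.7, 40.3 and 105 CPM. KO replicates 5 and 2 also had the highest macrophage scores (9.05 and 8.88) and NTC replicates 2 and 4 the lowest (5.50 and 5.25). The study detected *Sdc3* in macrophages as well as tumor cells and called bulk values of it challenging to interpret. Which cells gave these differences was not tested.

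The genes most like each member were found by Pearson's r of log2 CPM over the 10 tumors, as a description. For *Tgfb1* they included *Rbm47* and *Apba1* (r = 0.99 each). For *Tgfbr2* they were *Fli1*, *Ticam2* and *Pmp22* (r = 0.99 each) and for *Tgfbi* they were *Peak1os*, *Hrh2* and *Pde1b* (r = 0.99 each). Without NTC replicate 1 r ranged from 0.98 to 1.00 for these genes. For *Thbs1* they were *Ptgs2* (r = 0.99), which encodes cyclooxygenase-2, *Vasn* (r = 0.98), a TGF-β-binding membrane protein that was also in the pathway lists, and *Sema3c* (r = 0.97). *Ptgs2* was also among the 3 genes most like *Inhba* (r = 0.94), after *Gm38236* and *Dennd4a* (r = 0.94 each). For *Ltbp1* they were *Lrp3*, *Ext1* and *Ackr3* (r = 0.97, 0.96 and 0.96). Leaving out NTC replicate 1 brought r to 0.90, 0.91 and 0.90 for *Gm38236*, *Dennd4a* and *Ptgs2* with *Inhba*, to 0.94, 0.93 and 0.92 for *Lrp3*, *Ext1* and *Ackr3* with *Ltbp1*, and to 0.97, 0.99 and 0.93 for *Ptgs2*, *Vasn* and *Sema3c* with *Thbs1*. The genes most like *Tgfbr1* were *Zfp715*, *Pdcd10* and *Galnt1* (r = 0.97, 0.96 and 0.96). The genes most like *Tgfb3* (*Mtmr11*, *Kcne4* and *Hoxd8*, r = 0.95, 0.91 and 0.91) had between 0.197 and 3.64 CPM, and so did 2 of those most like *Tgfb2* (*Awat2* and *Gm45428*, r = 0.94 and 0.93, at 0.246 to 1.35 CPM) though not *Stk11* (r = 0.92). The highest of so many r values over 10 tumors can be high without a relation, and no p is given.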

How the data were processed

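The authors checked reads with FastQC, trimmed them with Trimmomatic, aligned them to mm10 with HISAT2 and, per the labels, used HTSeq, and they deposited whole-number counts of reads per gene without normalization. The gene annotation and strand setting are not given in the sources used here. The rows that name no gene were left out. Their no-feature row held 17.5% to 42.9% of the reads in the file. Library totals on genes ran from 11896643 to 28682130, which limits precision most in NTC replicate 1.

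KO and NTC tumors (5 each, from the labels) were compared with edgeR 4.0.16's quasi-likelihood test with TMM normalization, filterByExpr, Benjamini-Hochberg adjusted p under 0.05 over all genes tested and an absolute log2 fold change above 1. Log2 CPM used a prior count of 2. Exon lengths, 3′ UTRs and positions came from GENCODE M21 on GRCm38. Relations used two-sided permutation tests. The edgeR test was tried on simulated counts with large changes and the same dispersion for every gene, and the permutation test on simulated pairs. This does not show that smaller differences would be found. DESeq2 and the fits with covariates were not tried in this way. The alternatives were DESeq2 1.42.0, RLE or no scaling factor, other filters, no fold threshold, robust dispersions, the replicate number as a block, marker scores as covariates and each tumor left out. The macrophage covariate, no scaling factor, DESeq2 over 9 tumors and relations without NTC replicate 1 were chosen after seeing the data. Software was R 4.3.3 and Python 3.11.15 with pandas 2.3.3, numpy 2.4.6, scipy 1.17.1 and matplotlib 3.10.9.

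The members, pathway lists, marker lists and tests were chosen with earlier results of these data known. Genes named are the 9 members, for each the 3 genes of highest r, pathway genes at an unadjusted p under 0.05, and *Smad7*, *Pmepa1*, *Tgfbr3*, *Eng*, *Acvr2a*, *Acvr2b*, *Itgav*, *Itgb8*, *Lrrc32*, *Fst* and *Sdc3*. Some genes under this rule are not reported here. *Nrros*, *Thbs2*, *Col1a1*, *Postn*, *Acta2* and *Ski* were named after their values were seen.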

Additional observations from a re-analysis of the deposited data

Results flagged for a closer look

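Each member, marker score and library measure was checked in each group of 5 for a tumor whose gap to the rest exceeded 0.71 of the group's range (Dixon's test), 48 checks in all. Chance gives about 1 such value in 20 groups. There were 10, of which 8 belong to NTC replicate 1. Among the members, *Inhba* in NTC replicate 1 was at a log2 CPM of 5.43, where the other NTC tumors had 1.36 to 2.33. *Ltbp1* in KO replicate 5 was at 3.25 against 1.96 to 2.21 in the other KO tumors, and *Tgfb3* in KO replicate 4 was the lowest of its group at 3.11 against 3.51 to 3.65. In NTC replicate 1 the neutrophil score reached 3.82, where the other NTC tumors had -1.62 to -0.62, the platelet score 0.84 against -1.48 to -0.89, the keratinocyte score -1.60 against -3.66 to -3.15 and the melanoma score, the lowest of its group, 9.63 against 10.44 to 10.51. The same library had the fewest reads on genes (11896643), the most genes with a count (33193 against 22192 to 23831) and the lowest TMM factor (0.628).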

How the results depend on the processing

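The log2 fold changes kept their direction in most alternatives, and no member was called in an alternative other than DESeq2 without a filter and without NTC replicate 1. Leaving out NTC replicate 1 turned *Inhba* to 1.04, *Ltbp1* to 0.18 and *Thbs1* to 0.66, and in DESeq2 over those 9 tumors they were at 1.06, 0.21 and 0.69. With each tumor left out in turn they ranged from -0.92 to 1.04, from -0.75 to 0.18 and from -0.78 to 0.66. The others kept their direction, at 0.42 (without KO replicate 5) to 1.30 (without NTC replicate 1) for *Tgfb1*, -0.54 (without KO replicate 4) to -0.15 (without KO replicate 1) for *Tgfb2*, 0.09 (without NTC replicate 4) to 0.32 (without NTC replicate 3) for *Tgfb3*, 0.0092 (without KO replicate 2) to 0.12 (without KO replicate 4) for *Tgfbr1*, 0.08 (without NTC replicate 4) to 0.75 (without NTC replicate 1) for *Tgfbr2* and 0.16 (without KO replicate 5) to 0.70 (without NTC replicate 1) for *Tgfbi*. *Thbs1* was at 0.0313 with the replicate block and 0.0412 with no normalization factor, which moved the median log2 fold change of all genes by 0.09. With the pan-leukocyte, fibroblast and macrophage scores as covariates the values were -0.0022, -0.0017 and -0.0225 for *Tgfb3*, -0.0604, -0.0229 and -0.0699 for *Tgfbr1*, -0.19, -0.12 and -0.26 for *Tgfbr2* and -0.21, -0.10 and -0.27 for *Tgfbi*. The r of *Ltbp1* with the melanoma score turned to 0.0677 without the 2 tumors farthest from the median score. The causes were not tested.

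Of the members, 2, 2 and 3 had an unadjusted p under 0.05 with these covariates (13.1% and 10.1% of all genes with the first 2, and 2058 of 15821 genes with the macrophage score), 1 (*Tgfb1*) with no normalization factor, 2 without NTC replicate 1 and 0 to 2 over all tumors left out in turn. DESeq2 over 9 tumors called 1 higher, with 2 at that level. Pathway genes at that level were 8 with the pan-leukocyte and 8 with the fibroblast score, of 50 tested beside those shares of all genes, 18 in DESeq2 over 9 tumors (3 called higher) and 2 to 18 with tumors left out, where 18 came from leaving out NTC replicate 1. Over all genes, 24 were called higher and 72 lower by DESeq2, 0 and 6 with at least 10 counts in every tumor, 4 lower with robust dispersions, 4 lower with no fold threshold, 0 lower with no normalization factor, 4 higher and 5 lower with the pan-leukocyte score, 4 higher with the macrophage score, and 618 and 136 by DESeq2 over 9 tumors (4130 at an unadjusted p under 0.05). Without a filter 3591 genes had an unadjusted p under 0.05. With tumors left out in turn, 1 to 2 genes were called higher, 0 to 15 lower, and 996 to 3230 had an unadjusted p under 0.05. With the replicate number as a block 0 genes were lower. The labels do not say that the numbers pair the tumors. Of the 5 same-number pairs 3 correlated above 0.1, and 3 tumors correlated best with their own number, and so few pairs cannot decide it. With this block *Tgfb1* was at 0.88 (standard error 0.41, adjusted p = 0.506 by edgeR). Depth limits *Tgfb2*, *Ltbp1* and *Inhba* most, at 38 to 402 reads per library.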
